A study of Homo sapiens with 12 samples.

Results

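The chromosome 19 ZNF genes encode C2H2 zinc finger proteins and lie in tandem arrays along that chromosome. Members were all Ensembl genes on chromosome 19 whose symbol is ZNF followed by digits and at most 1 letter from A to G. This gave 247 genes, and 2 pseudogenes were left out, so that 245 members of the 27249 Ensembl genes in the tables were described. For comparison, 261 ZNF genes lay on other chromosomes and 1406 further genes on chromosome 19. RNA was sequenced from established human liver cancer lines labelled wild type, Huh7 and HepG2, each as parental and as sorafenib-resistant cells, and the 4 groups held 3 samples apiece. Sorafenib is a multikinase inhibitor used in hepatocellular carcinoma. Per the labels, resistant cells of both lines were survivors of a first dose of 10 μmol for 24 h that were then taken through rising doses over 8 months, and parental cells have no such exposure in their labels. The sources used here do not give how many separate selections were made or whether drug was present at harvest, and nothing says that replicates came from separate cultures, so p-values measure only the spread between these samples. Levels are in FPKM (reads per kilobase of exon, scaled to the reads of the sample), and between 12290128 and 19285958 reads lay behind a sample.

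Most proteins of this family pair an array of C2H2 fingers, which read DNA, with a KRAB box near the amino terminus. The KRAB box binds TRIM28 (KAP1), which brings the histone methyltransferase SETDB1, HP1 proteins and the NuRD complex to the bound site, and many of its targets are retrotransposons. The genes arose by repeated local duplication, so that neighbours often encode close relatives. A KRAB box was found in 210 of the 245 members with a profile search of translated GENCODE transcripts, and 35 had none. The KRAB members had a median of 13 C2H2 fingers, with a range of 0 to 36, and the others a median of 9, from 1 to 20. Transcripts of the KRAB members were poor in GC, with a median of 41.8%, while those of the members without the box had a median of 59.6%.

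Members less than 1 Mb apart were joined, which gave 16 clusters numbered along the chromosome, and 7 clusters of at least 10 members held 224 of the 245. The largest was the last, cluster 16, with 59 members in 55.5 to 58.5 Mb of GRCh38, 45 of them with a KRAB box. Cluster 5, with 36 members in 19.7 to 24.1 Mb, had the lowest median GC content of the 7, 37.5%, and includes ZNF91 and ZNF93.

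Promoters of 5 members picked by their changes are shown. ZNF543, ZNF304 and ZNF416 lie in cluster 16 and rose in resistant Huh7 cells, while ZNF91 and ZNF93 of cluster 5 fell. Each line gives the 250 bases before the RefSeq start (GRCh38.p14), 5′ to 3′, with CG dinucleotides in capitals. The windows are chr19:57320222-57320471 (forward), chr19:57351021-57351270 (forward), chr19:57578912-57579161 (reverse), chr19:23395472-23395721 (reverse) and chr19:19900696-19900945 (forward).
ZNF543: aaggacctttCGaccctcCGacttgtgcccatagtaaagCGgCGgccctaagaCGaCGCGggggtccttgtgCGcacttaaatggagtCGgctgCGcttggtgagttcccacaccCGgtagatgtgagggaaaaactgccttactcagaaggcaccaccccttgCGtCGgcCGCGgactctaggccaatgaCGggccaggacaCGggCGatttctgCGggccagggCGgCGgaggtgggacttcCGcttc
ZNF304: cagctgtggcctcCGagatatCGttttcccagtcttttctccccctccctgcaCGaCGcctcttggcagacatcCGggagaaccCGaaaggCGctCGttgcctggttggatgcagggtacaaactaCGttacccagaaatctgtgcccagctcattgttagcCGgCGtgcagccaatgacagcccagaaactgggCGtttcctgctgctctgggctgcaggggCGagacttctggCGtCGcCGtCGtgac
ZNF416: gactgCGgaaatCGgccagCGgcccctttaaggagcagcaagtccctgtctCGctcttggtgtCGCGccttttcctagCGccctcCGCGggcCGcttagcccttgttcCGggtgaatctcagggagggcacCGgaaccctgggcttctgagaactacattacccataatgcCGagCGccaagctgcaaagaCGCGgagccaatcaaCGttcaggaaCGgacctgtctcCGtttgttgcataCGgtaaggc
ZNF91: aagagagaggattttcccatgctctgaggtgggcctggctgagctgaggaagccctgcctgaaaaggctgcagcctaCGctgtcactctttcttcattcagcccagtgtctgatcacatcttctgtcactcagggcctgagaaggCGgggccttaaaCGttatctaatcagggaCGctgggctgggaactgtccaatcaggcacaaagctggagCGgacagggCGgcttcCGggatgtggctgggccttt
ZNF93: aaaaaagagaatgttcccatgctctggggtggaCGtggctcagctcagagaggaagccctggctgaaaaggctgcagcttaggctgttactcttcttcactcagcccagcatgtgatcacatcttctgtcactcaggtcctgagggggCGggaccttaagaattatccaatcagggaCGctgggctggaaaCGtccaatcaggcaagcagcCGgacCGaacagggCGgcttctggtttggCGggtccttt
The 3 cluster 16 promoters held 22, 17 and 20 CG dinucleotides, and those of ZNF91 and ZNF93 held 7 and 8. Over the 215 members with a promoter in the RefSeq table the median was 16, against 11 over all 27305 promoters. It was 18.5 over the promoters of cluster 16 and 15 over the other member promoters, a smaller gap than between the 5 windows. The ZNF91 and ZNF93 windows were 83.1% identical over a global alignment, and the other 9 pairs of these windows 47.3% to 55.9%. On both strands, the ETS core CCGGAAG stood in 50% of the 54 promoters of cluster 16, in 26.1% of the 161 other member promoters and in 8.82% of all promoters. Of the 5 windows shown, that of ZNF91 held it. The GC box GGGCGG was present in 65.1% of member promoters and 42.3% of all promoters, and TATAAA in 1.86% and 11.1%. For the GC box the share was 59.3% in cluster 16 and 67.1% in the other member promoters. These matches are descriptions of the windows only.

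Members were expressed at low levels. Over the 12 samples, 7 members averaged at least 10 FPKM, 134 averaged 1 to 10 FPKM, 79 averaged 0.1 to 1 FPKM and 25 lay below 0.1 FPKM, with a median member at 1.27 FPKM. In all, 82 members had at least 1 FPKM in all 12 samples, and 16 had no more than 3 reads in any of them. The most abundant was ZNF460, at 33.1 ± 1.81 FPKM in resistant and 24.1 ± 1.31 FPKM in parental Huh7 cells, and at 17 ± 1.79 and 20.8 ± 3.74 FPKM in HepG2 cells (SD, n = 3 throughout). The next were ZNF587, ZNF146, ZNF121 and ZNF317. For ZNF587, 35% of the exon bases also lie in exons of other genes and ZNF417 is a close copy, so its value is uncertain. In total, 26 members shared over 20% of their exon bases with other genes.

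The first question was how these genes changed in resistant Huh7 cells. Most tested members were lower than in parental cells, while those of cluster 16 were mainly higher. Among the 6 Huh7 samples, 152 members reached 1 FPKM in 3 or more and were tested, and 30 of them were higher and 77 lower at an adjusted p under 0.05, where 32.7% and 37.4% of all 12554 genes tested were higher and lower. With a log2 fold change beyond 1 as a further condition, 8 members rose and 10 fell, beside 8.59% and 14.0% of all genes. The median log2 fold change was -0.31 over the members and -0.04 over all genes tested. In 35 members the resistant samples all lay above the parental ones, and in 90 they all lay below, compared with 35.2% and 39.2% of all genes. A member could pass the level filter through 1 group alone. One that reached 1 FPKM only in the 3 parental samples lies below by construction, and the 90 include such members. The number of lower members was 56 of 134 tested without parental replicate 1, 51 of 133 without parental replicate 2 and 53 of 133 without parental replicate 3. Of all genes, 11647, 11638 and 11642 were tested in these fits, with medians of 0.07, 0.04 and 0.01. The medians of the members were -0.26, -0.25 and -0.23. The shares of all genes that were lower in these fits are not given here, so the counts cannot be set against them.

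Fold change in Huh7 followed GC content across the genome, and that of the members rose with GC content as well. Spearman's rho between log2 fold change and GC content was 0.62 over all genes tested and 0.67 over the 152 members, as a description across genes that share the same 6 libraries. Members with less than 38% GC had a median of -0.75, against -0.90 over all genes of that range. From 38 to 42% the medians were -0.55 for the members and -0.64 for all genes. At 50% or more they were 0.45 and 0.47. In HepG2 cells rho was 0.04 over all genes and -0.03 over 124 members.

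When the GC trend of each library was removed, the balance of the members turned. In Huh7 cells, 54 members were then higher and 27 lower at an adjusted p under 0.05, beside 32.5% and 31.9% of all genes, and the median of the members was 0.14. Of the 77 members that were lower without this step, 22 stayed lower, 49 no longer passed and 6 passed as higher. Of the 30 that were higher, 28 stayed higher and 2 no longer passed. The larger number of lower members in resistant Huh7 cells thus depended on whether the GC trend was left in.

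**Figure D1:**
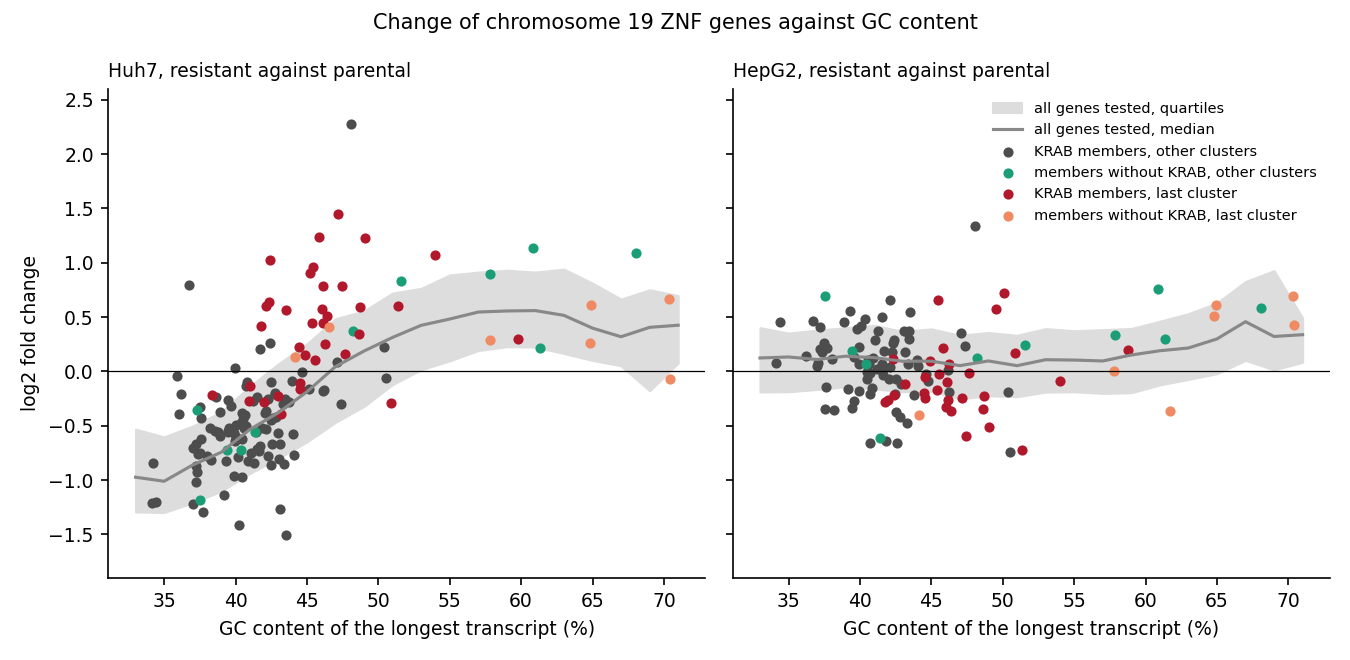
Log2 fold change (resistant against parental) of each tested member against the GC content (%) of its longest transcript, in Huh7 (left) and HepG2 cells (right). The grey line and band are the median and quartiles of all genes tested in bins of GC content. In Huh7 cells the KRAB members of other clusters (dark grey) mostly follow the rising line, and many KRAB members of cluster 16 (red) lie above it.

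In cluster 16 most called members were higher in resistant Huh7 cells. Of its 42 tested members, 23 were higher and 1 was lower at an adjusted p under 0.05, with a median log2 fold change of 0.42. In the other 15 clusters together, 7 members were higher and 76 lower of 110, with a median of -0.52. After removal of the GC trend, cluster 16 had 29 higher and 3 lower with a median of 0.42, and the other clusters 25 higher and 24 lower with a median of 0.05. Among the KRAB members of cluster 16 alone, 20 of 35 were higher and 1 lower. Leaving out each Huh7 sample in turn gave 18 to 24 higher and 0 to 4 lower members in the cluster.

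The same counts were taken within narrow ranges of GC content. Between 45 and 50% GC, all 17 tested members of cluster 16 had a log2 fold change above 0 in Huh7 cells, 14 of them at an adjusted p under 0.05, with a median of 0.58. The 7 members of other clusters in that range had a median of -0.16, the 30 ZNF genes of other chromosomes -0.05 and all 2283 genes 0.05. Of these 2283 genes, 1190 lay above 0 and 788 were higher at an adjusted p under 0.05. Between 42 and 45% GC, the medians were 0.15 for 11 members of cluster 16, -0.43 for 27 other members and -0.33 for all 1808 genes. From 38 to 42% they were -0.22 for 5 members of the cluster, -0.56 for 48 others and -0.64 for all genes. At 50% or more the order was different. There the medians were 0.29 for 9 members of cluster 16, 0.84 for 7 other members and 0.47 for all 4842 genes. In HepG2 cells, 4 of the cluster's 16 tested members between 45 and 50% GC were above 0, beside 1198 of all 2102 genes.

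**Figure D2:**
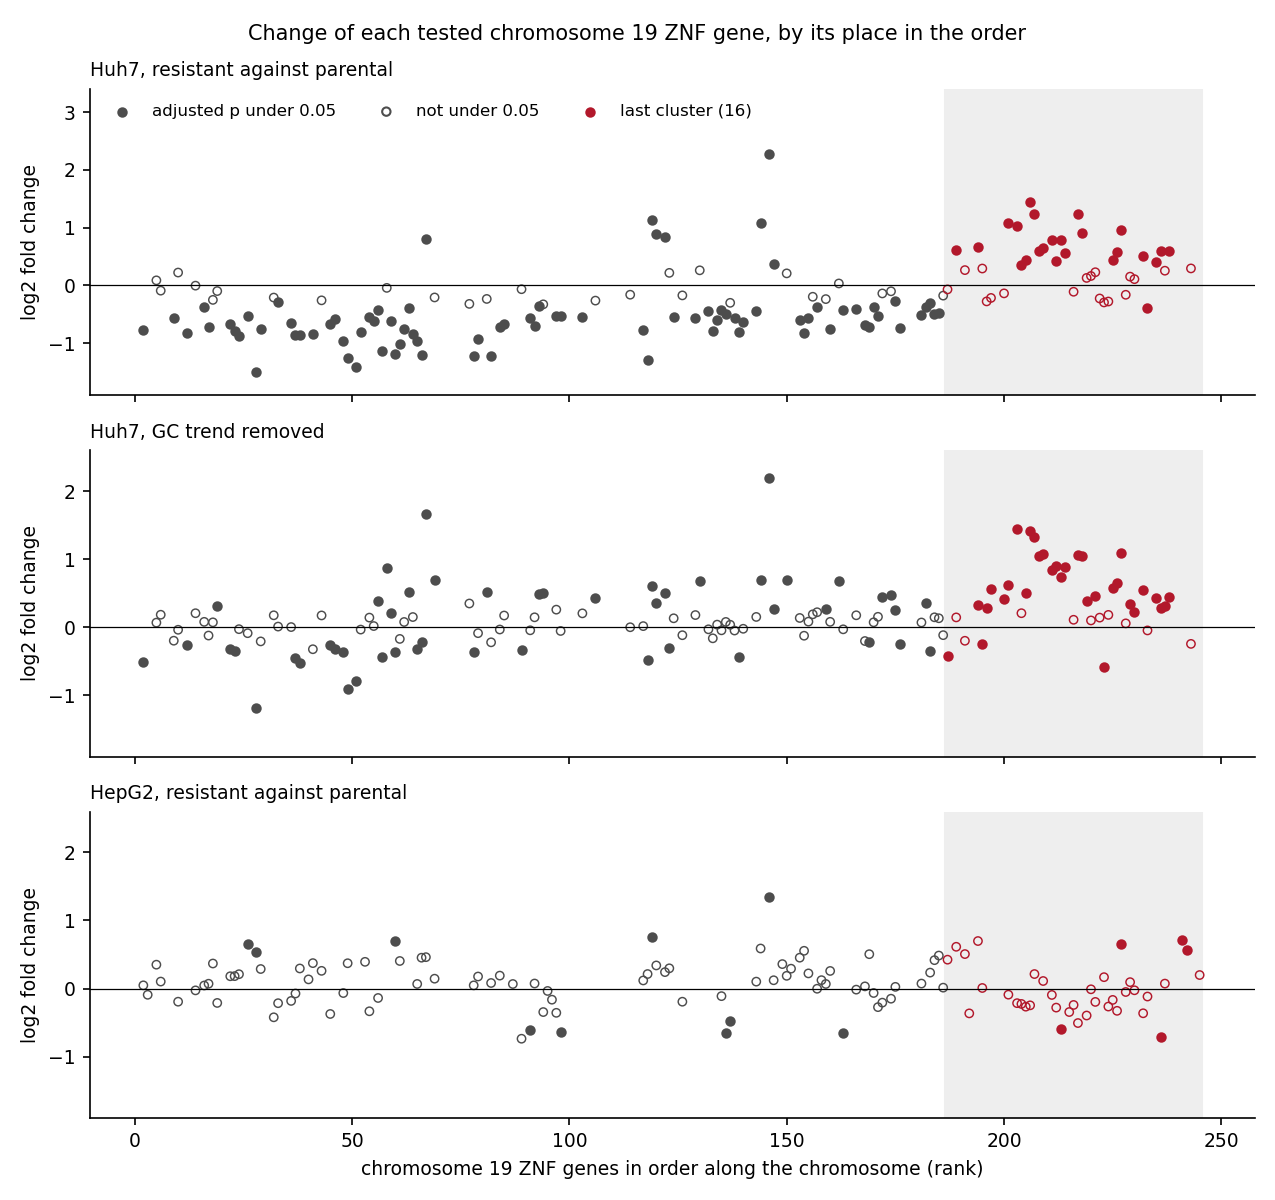
Log2 fold change of each tested member (resistant against parental) by its rank in the order along chromosome 19, in Huh7 cells, in Huh7 cells with the GC trend removed and in HepG2 cells. Filled points have an adjusted p under 0.05, and the shaded stretch with red points is cluster 16, where 23 of 42 members were higher in Huh7 cells.

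Summed over its 59 members, cluster 16 reached 262, 290.2 and 278 FPKM in the resistant Huh7 samples and 206, 188 and 178 FPKM in the parental ones. The groups did not overlap, and the mean was 1.45 times higher in resistant cells. The same sum was 129, 137 and 137 FPKM in resistant and 129, 142 and 148 FPKM in parental HepG2 cells, which overlapped. Cluster 5 showed the opposite in Huh7 cells, with 70.4, 79.6 and 65.7 FPKM in resistant and 122, 136 and 148 FPKM in parental samples. Cluster 3, with 25 members in 11.5 to 12.6 Mb, went from 60.9 ± 4.98 FPKM in parental to 29.8 ± 2.52 FPKM in resistant Huh7 cells (SD, n = 3), and 12 of its 14 tested members were lower and none higher at an adjusted p under 0.05. The median GC content of cluster 3 was 42.5%. Of all genes, 69.1% were lower in Huh7 cells from 38 to 42% GC, and 903 of 1808 were from 42 to 45%. After removal of the GC trend 6 of the 14 tested members of cluster 3 were lower, beside 31.9% of all genes.

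Genes of cluster 16's interval that are not members were also tested. Of 13 tested in Huh7 cells, 9 were higher and 1 lower, with a median of 0.51 at a median GC content of 53.0%, and after removal of the GC trend 6 were higher and 1 lower, with a median of 0.15. In the stretch between clusters 15 and 16, 15 of 22 genes were higher and none lower, with a median GC content of 59.9%, which became 8 higher and 4 lower after that removal. Of all genes with 50% GC or more, 58.8% were higher and 8.94% lower in Huh7 cells. After removal of the GC trend, 32.5% of all genes tested were higher there and 31.9% lower. In HepG2 cells, 4 of 13 other genes in the cluster 16 interval were higher and none lower, beside 11.6% and 8.43% of all genes.

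**Figure D3:**
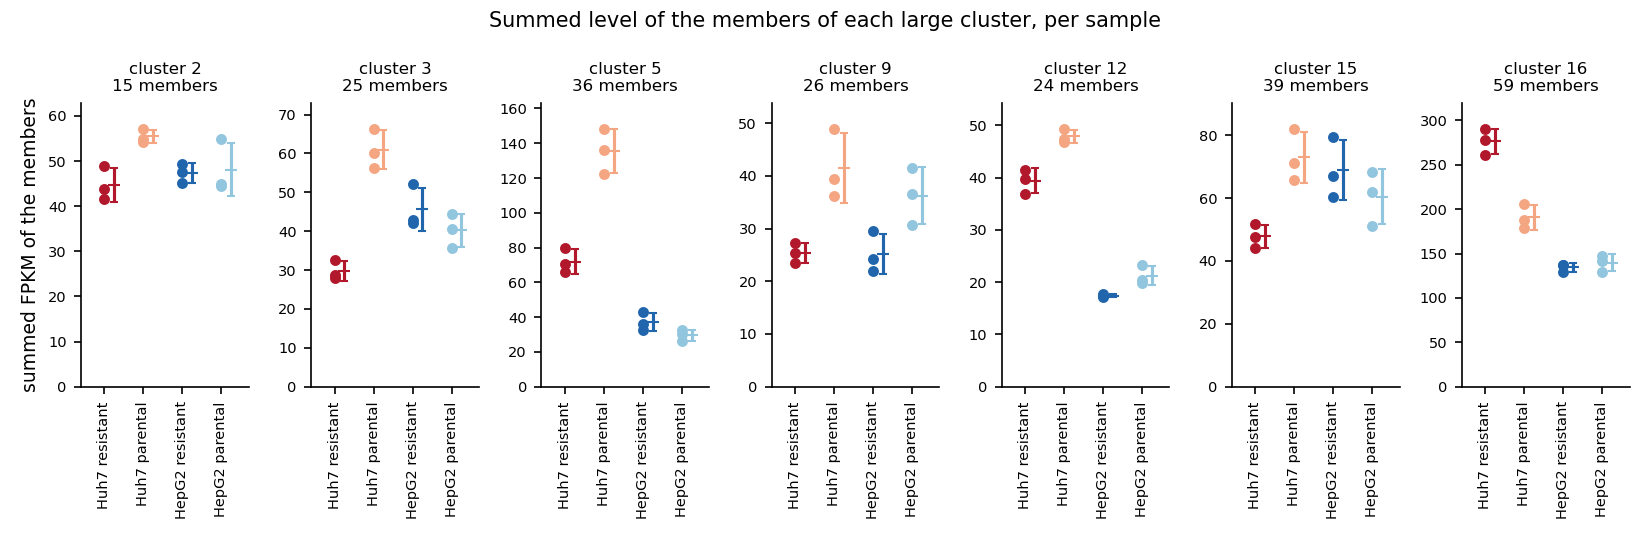
Summed FPKM of the members of each of the 7 clusters with at least 10 members, per sample (points), with the mean and SD of each group of 3 beside them. In Huh7 cells cluster 16 is the one whose resistant samples (262 to 290.2 FPKM) lie above the parental ones (178 to 206 FPKM).

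The members of cluster 16 with the largest rise in Huh7 cells were KRAB genes with high GC for the family. ZNF543 (ENSG00000178229, chr19:57320509-57330776, forward strand), with 13 fingers and 47.2% GC, measured 12.7, 13.6 and 13.3 FPKM in resistant and 4.66, 3.8 and 4.23 FPKM in parental Huh7 cells. All resistant samples were thus well above the parental ones, with a log2 fold change of 1.45 ± 0.11 (SE) and an adjusted p of 2.38e-05. In HepG2 cells ZNF543 measured 4.57, 4.77 and 4.97 FPKM in resistant and 5.0, 6.94 and 5.73 FPKM in parental samples, with a log2 fold change of -0.25 that did not pass (adjusted p = 0.268). Its promoter, shown above, is the richest in CG dinucleotides of the 5.

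ZNF304 (chr19:57351307-57359898, forward strand), known to recruit corepressors to silence tumour suppressor genes in colorectal cancer, showed 12.4, 14.4 and 14.1 FPKM in resistant and 5.67, 5.33 and 4.58 FPKM in parental Huh7 cells. The groups were far apart, with a log2 fold change of 1.24 ± 0.12 (SE) and an adjusted p of 5.99e-05. ZNF416 (chr19:57571566-57578927, reverse strand) measured 7.47, 5.95 and 6.45 FPKM in resistant and 2.72, 1.99 and 2.05 FPKM in parental cells, a log2 fold change of 1.23 ± 0.13 (SE) with an adjusted p of 1.04e-04. Both rises remained past the threshold with the GC trend removed, at 1.33 and 1.06. ZNF460, the most abundant member, rose as well in Huh7 cells, from 25.6, 23.4 and 23.2 FPKM to 31.5, 35.1 and 32.7 FPKM, by 0.44 ± 0.10 on the log2 scale (SE, adjusted p = 0.00384).

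ZNF274, which binds the 3′ ends of other zinc finger genes and brings SETDB1 to them, lies towards the end of the same cluster (chr19:58183029-58213562, forward strand). It measured 5.07, 4.85 and 4.88 FPKM in resistant and 3.22, 2.54 and 3.02 FPKM in parental Huh7 cells, and 2.24, 2.61 and 2.13 FPKM in resistant and 3.82, 4.7 and 4.95 FPKM in parental HepG2 cells. Resistant and parental samples were fully separated in both lines, in opposite order. ZNF274 rose in Huh7 cells with a log2 fold change of 0.60 ± 0.11 (SE, adjusted p = 0.00139) and fell in HepG2 cells with -0.72 ± 0.15 (SE, adjusted p = 0.0131). The HepG2 call was lost without resistant replicate 3 (adjusted p = 0.0786). The difference between the lines was 1.32 on the log2 scale (interaction, adjusted p = 6.46e-05).

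Outside cluster 16, 7 members were higher in resistant Huh7 cells at an adjusted p under 0.05: ZNF43, ZNF114, ZNF296, ZNF473, ZNF526, ZNF574 and ZNF576, which are named here because the count is small. ZNF574 (chr19:42068477-42081549, forward strand), a finger protein without a KRAB box and with 60.9% GC, measured 13.6, 12.1 and 14.6 FPKM in resistant and 6.6, 5.6 and 4.56 FPKM in parental Huh7 cells. The resistant samples were all higher, with a log2 fold change of 1.14 ± 0.14 (SE, adjusted p = 1.75e-04), which was 0.61 with the GC trend removed (adjusted p = 2.44e-04). It rose in HepG2 cells too, from 2.07, 3.07 and 3.27 FPKM to 4.06, 6.45 and 5.8 FPKM, with a log2 fold change of 0.75 ± 0.20 (SE, adjusted p = 0.0322). The HepG2 call was lost without resistant replicate 2, resistant replicate 3, parental replicate 1 or parental replicate 2 (adjusted p = 0.0945, 0.119, 0.102 and 0.0548) and with no filter on low values (0.0912).

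Many of the members that fell in Huh7 cells lay in cluster 5, with 19 of its 24 tested members lower and 1 higher. The median GC content of this cluster was 37.5%. Of all genes with less than 38% GC, 82.2% were lower and 3.33% higher, and from 38 to 42% GC 69.1% and 5.85%. The share of lower members in cluster 5 thus lay near that of all genes with similar GC content. ZNF91 (chr19:23304991-23395560, reverse strand), a KRAB protein with 31 fingers that represses SVA retrotransposons, measured 4.81, 3.96 and 3.15 FPKM in resistant and 8.85, 9.91 and 13.1 FPKM in parental Huh7 cells. ZNF93 (chr19:19900913-19963464, forward strand), its relative that represses LINE-1 elements, measured 3.0, 3.57 and 3.23 FPKM and 8.98, 10.7 and 11.6 FPKM. In both genes the resistant samples all lay below the parental ones. The log2 fold changes were -1.22 ± 0.17 for ZNF91 (SE, adjusted p = 3.5e-04) and -1.41 ± 0.12 for ZNF93 (SE, adjusted p = 4.49e-05). After removal of the GC trend they were -0.37 (adjusted p = 0.0327) and -0.80 (adjusted p = 1.18e-04), so that both stayed lower, by less than 2-fold. Over cluster 5 that step left 8 members lower and 7 higher.

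ZNF69 (chr19:11887784-11914329, forward strand), a KRAB gene of cluster 3, had the largest fall, from 10.4, 10.5 and 13.9 FPKM in parental to 3.69, 3.29 and 3.27 FPKM in resistant Huh7 cells. Its log2 fold change was -1.50 ± 0.13 (SE, adjusted p = 4.84e-05), and it was the 1 member that still fell beyond 1 with the GC trend removed, at -1.19, where 10 members rose beyond 1, beside 6.27% and 5.59% of all genes lower and higher. ZNF506 of cluster 5 measured 2.82, 3.56 and 2.6 FPKM in resistant and 7.9, 9.32 and 8.44 FPKM in parental cells, with a log2 fold change of -1.26 ± 0.13 (SE, adjusted p = 7.79e-05). ZNF780A of cluster 10 measured 1.64, 1.81 and 1.34 FPKM and 4.19, 5.7 and 6.36 FPKM, with a log2 fold change of -1.30 ± 0.15 (SE, adjusted p = 1.5e-04). With the GC trend removed the change of ZNF506 was -0.91 and that of ZNF780A -0.48, both still past an adjusted p of 0.05.

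**Figure D4:**
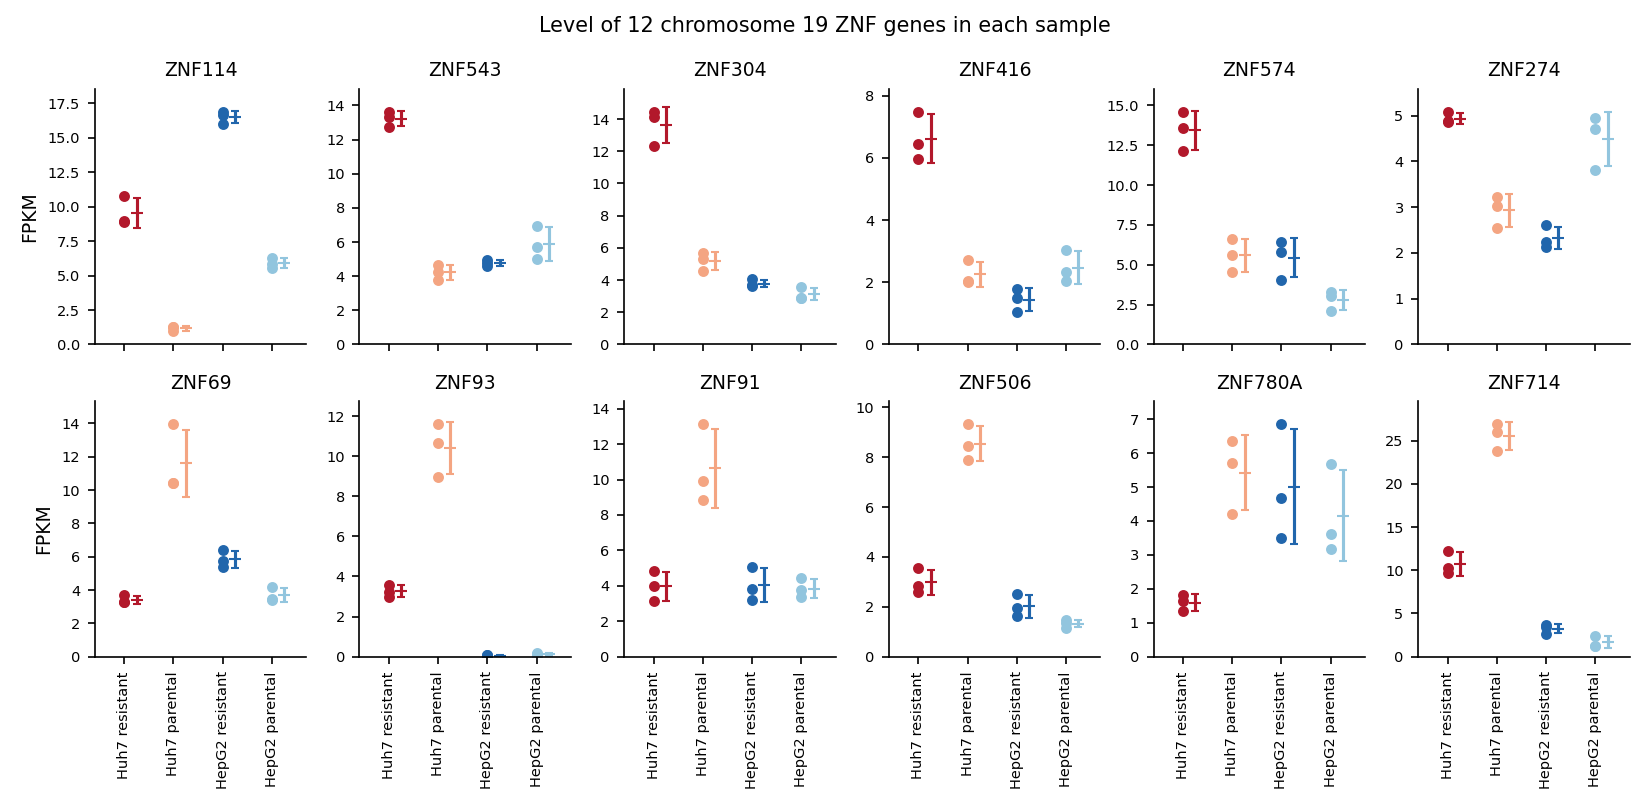
FPKM of 12 members in each of the 12 samples (points), with the mean and SD of each group of 3 beside them; each axis starts at 0. ZNF114 is higher in the resistant samples of both lines, ZNF543, ZNF304 and ZNF416 are highest in resistant Huh7 cells, and ZNF69, ZNF93, ZNF91, ZNF506 and ZNF714 are highest in parental Huh7 cells.

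Members with and without a KRAB box were also counted separately, and the difference between these classes was not tested. Of 134 tested KRAB members, 22 were higher and 72 lower at an adjusted p under 0.05, with a median log2 fold change of -0.38. Of 18 tested members without the box, 8 were higher and 5 lower, with a median of 0.28. Once the GC trend was removed, 45 KRAB members were higher and 23 lower with a median of 0.13, and 9 of the others were higher and 4 lower with a median of 0.21. Most ZNF genes of other chromosomes that passed the test were lower in Huh7 cells, with 40 higher and 86 lower of 175 and a median of -0.28, and after that removal 32 were higher and 66 lower, with a median of -0.13. The other genes of chromosome 19, at a median GC content of 59.5%, had 318 higher and 45 lower of 581, or 54.7% and 7.75%. Of all genes with 50% GC or more, 58.8% were higher and 8.94% lower, so these shares lay near that background.

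In HepG2 cells few members changed. Of 124 tested, 8 were higher and 7 lower at an adjusted p under 0.05, beside 11.6% and 8.43% of all 11762 genes, and 1 member passed the fold threshold as higher and none as lower, beside 3.29% and 2.98% of all genes. With limma-voom on the reads, 3 passed as higher and 4 as lower. The median log2 fold change was 0.07 over the members and 0.12 over all genes. In 24 members the resistant samples all lay above the parental ones and in 24 all below, where 24.9% and 15.5% of all genes did. A member that reached 1 FPKM in 1 group alone lies apart by construction, and both counts include such members. The split of higher and lower members depended on scaling, with 5 higher and 10 lower under median-ratio scaling and 9 higher and 20 lower with the GC trend removed, beside 15.8% and 17.6% of all genes. It also rested on single samples: 2 higher and 1 lower remained without resistant replicate 2, 1 and 0 without resistant replicate 3, 1 and 1 without parental replicate 1, 4 and 3 without parental replicate 2, and 9 and 2 without parental replicate 3. Of the 15 HepG2 calls, that of ZNF114 passed in all 6 fits that left out a sample. Each of the other 14 missed the threshold in at least 1 of them, and those of ZNF69, ZNF714 and ZNF587B missed it in 5. ZNF227 passed in 0 of the 6 fits, as it missed in 3 and was not tested in the others. ZNF132, ZNF226, ZNF419 and ZNF528 each passed in 1, missed in 2 and were otherwise not tested. In some of these fits a gene fell below the filter on low values and was not tested. The shares of all genes called in these fits, under median-ratio scaling and with limma-voom are not given here.

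Apart from ZNF114, the higher HepG2 members with the largest change were ZNF574, ZNF584, ZNF714 and ZNF440. ZNF584 of cluster 16 measured 1.63, 1.76 and 2.15 FPKM in resistant and 0.474, 0.771 and 0.963 FPKM in parental HepG2 cells, with a log2 fold change of 0.72 ± 0.17 (SE, adjusted p = 0.0196). ZNF714 went from 1.29, 1.27 and 2.45 FPKM to 3.71, 2.65 and 3.39 FPKM (log2 fold change 0.69 ± 0.20, adjusted p = 0.046) and ZNF440 from 1.45, 1.42 and 1.78 FPKM to 3.41, 2.83 and 2.8 FPKM (0.65 ± 0.14, adjusted p = 0.0172). In these genes the HepG2 groups did not overlap. ZNF584 reached 1 FPKM only in the resistant samples, so it passed the level filter through that group alone and lies apart by construction. With no filter on low values the calls of ZNF584, ZNF714 and ZNF440 were lost (adjusted p = 0.0597, 0.128 and 0.0514). That of ZNF714 was also lost with a pseudocount of 0.1 (0.0505) and with upper-quartile or median-ratio scaling (0.0572 and 0.063). Both ZNF714 and ZNF440 fell in resistant Huh7 cells, with log2 fold changes of -1.18 and -0.53 (adjusted p = 7.68e-05 and 0.00174), and with the GC trend removed the change of ZNF440 there was -0.09 and no longer passed (adjusted p = 0.461).

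The 5 HepG2 members with the largest fall were ZNF274, ZNF226, ZNF528, ZNF850 and ZNF146. ZNF528 measured 0.443, 0.455 and 0.429 FPKM in resistant and 1.21, 1.01 and 1.64 FPKM in parental HepG2 cells, with a log2 fold change of -0.65 ± 0.16 (SE, adjusted p = 0.0222). ZNF528 reached 1 FPKM only in the parental samples there, so it passed the level filter through that group alone. ZNF226 and ZNF850 fell by similar amounts, with -0.66 ± 0.16 and -0.64 ± 0.16 (SE, adjusted p = 0.024 and 0.0272). The calls of ZNF226 and ZNF850 were lost with no filter on low values (adjusted p = 0.0626 and 0.0781). ZNF146, a protein made almost entirely of fingers without a KRAB box, measured 11.8, 9.04 and 9.52 FPKM in resistant and 17, 12.5 and 19 FPKM in parental cells, with a log2 fold change of -0.62 ± 0.18 (SE, adjusted p = 0.0493). This call was lost without resistant replicate 2 or 3 or parental replicate 1 or 3 (adjusted p = 0.133, 0.168, 0.135 and 0.119), with a pseudocount of 0.1 (0.0527), with no filter (0.108) and without the trend in limma (0.0518). ZNF146, ZNF226, ZNF528 and ZNF850 were also lower in resistant Huh7 cells at an adjusted p under 0.05, with log2 fold changes of -0.56, -0.50, -0.43 and -0.52, but none of these 4 passed there with the GC trend removed, and ZNF146 also missed the threshold there without resistant replicate 3 (adjusted p = 0.0554).

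ZNF114 was the 1 of 110 members tested in both lines that was higher in both by the fold threshold, beside 0.281% of all 10688 genes. This KRAB gene (ENSG00000178150, chr19:48270102-48287608, forward strand), in a cluster of 2 members, measured 8.89, 8.96 and 10.8 FPKM in resistant and 1.25, 1.27 and 0.972 FPKM in parental Huh7 cells. In HepG2 cells it measured 16, 16.6 and 16.9 FPKM in resistant and 6.26, 5.57 and 5.86 FPKM in parental samples. In both lines the lowest resistant sample lay well above the highest parental one. The log2 fold changes were 2.28 ± 0.12 in Huh7 cells (SE, adjusted p = 6.33e-06) and 1.34 ± 0.13 in HepG2 cells (SE, adjusted p = 5.52e-04), and 2.19 and 1.29 with the GC trend removed. The rise was larger in Huh7 cells by 0.94 on the log2 scale (interaction, adjusted p = 3.01e-04). At an adjusted p under 0.05 alone, 3 of the 110 members were higher in both lines (ZNF114, ZNF574 and ZNF587B), 4 were lower in both and 5 had opposite directions, beside 3.49%, 2.36% and 7.52% of all genes. After removal of the GC trend the same 3 were higher in both, 2 other members (ZNF791 and ZNF792) were lower in both and 9 had opposite directions, beside 4.28%, 4.6% and 13.6% of all genes.

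The interaction of cell line and resistance tested whether the change differed between the lines. It passed an adjusted p of 0.05 in 85 of 167 members, with 25 changes more positive in Huh7 cells and 60 more negative, beside 23.1% and 33.2% of all 13800 genes. Removal of the GC trend left 64 more positive and 25 more negative, beside 29.3% and 26.4% of all genes, so the direction of the majority turned. In cluster 16, 22 of 47 members were more positive and 2 more negative, and 31 and 4 with the GC trend removed. ZNF69 had the largest difference, at -2.05 ± 0.18 (SE, adjusted p = 7.37e-06), as it fell in Huh7 cells and rose in HepG2 cells from 3.48, 3.41 and 4.21 FPKM to 6.39, 5.75 and 5.39 FPKM. ZNF714 followed at -1.88, ZNF416 at 1.74 and ZNF543 at 1.69.

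The last comparison set the parental lines against each other, and most called members were higher in Huh7 cells. Of 167 members tested, 29 were higher and 4 lower in parental Huh7 than in parental HepG2 cells by both thresholds, beside 18.3% and 11.9% of all 13800 genes. At an adjusted p under 0.05 alone, 96 were higher and 19 lower, beside 39.8% and 27.4% of all genes, and the median was 0.38 over the members and 0.18 over all genes. After removal of the GC trend, 65 were higher and 50 lower, beside 35.2% and 35.3% of all genes, with a median of 0.08. In 98 members all Huh7 samples lay above all HepG2 samples, and in 24 below, where 40.7% and 28.0% of all genes did.

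The members of cluster 5 were mostly among the higher ones. Of its 25 tested members, 23 were higher and 1 lower in parental Huh7 cells, with a median log2 difference of 1.15, and 18 were higher and 3 lower with the GC trend removed, with a median of 0.59. Its summed level was 136 ± 12.8 FPKM in parental Huh7 and 29.6 ± 3.21 FPKM in parental HepG2 cells (SD, n = 3), a 4.58-fold difference. ZNF93 measured 8.98, 10.7 and 11.6 FPKM in parental Huh7 and 0.109, 0.0499 and 0.169 FPKM in parental HepG2 cells, a difference of 3.36 ± 0.11 (SE, adjusted p = 2.51e-10). ZNF714 measured 23.8, 26.9 and 26 and 1.29, 1.27 and 2.45 FPKM, and ZNF738 7.21, 8.8 and 7.7 and 0.117, 0.188 and 0.0651 FPKM, with differences of 3.34 ± 0.17 and 2.98 ± 0.12 (SE, adjusted p = 1.1e-08 and 1.67e-09). HepG2 cells thus had almost no ZNF93 and ZNF738 RNA, while both were among the better expressed members in Huh7 cells.

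The opposite was seen for ZNF556, ZNF580 and ZNF114. ZNF556 of cluster 1 measured 4.34, 6.77 and 5.98 FPKM in parental HepG2 and 0.0254, 0.0361 and 0.00941 FPKM in parental Huh7 cells, a difference of -2.69 ± 0.12 (SE, adjusted p = 5.27e-09). ZNF580, a short protein with 3 fingers and no KRAB box, measured 4.72, 5.44 and 4.46 and 0.331, 0.353 and 0.322 FPKM, a difference of -2.13 ± 0.13 (SE, adjusted p = 6.68e-08). ZNF114 was likewise lower in Huh7 cells, with a difference of -1.68 ± 0.10 (SE, adjusted p = 5.53e-08). These 3 differences were -2.91, -1.98 and -1.75 with the GC trend removed.

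**Figure D5:**
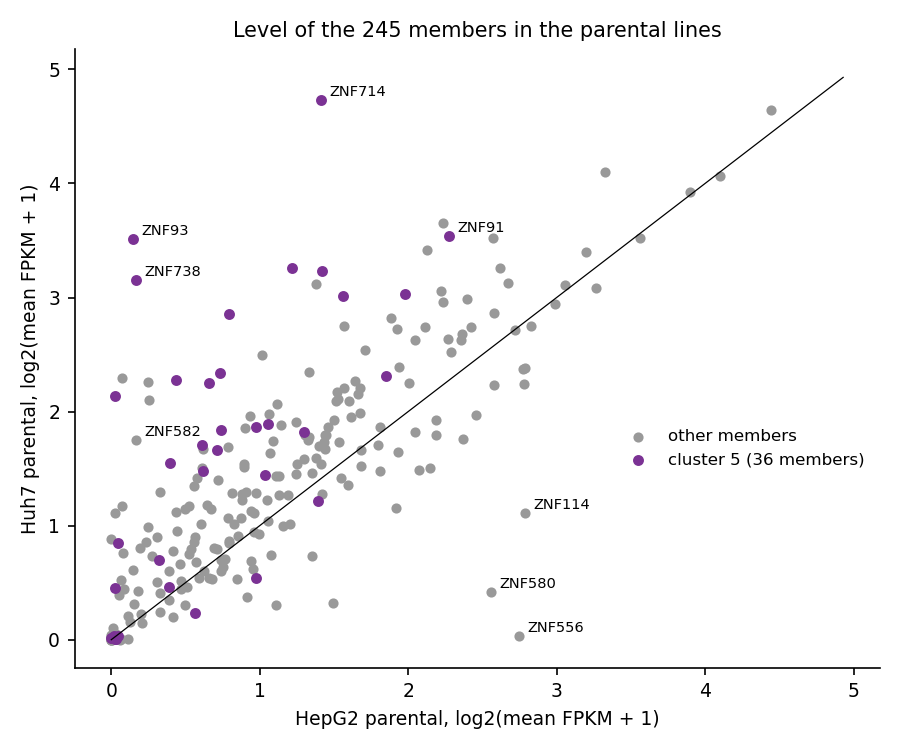
Mean level of each of the 245 members in parental Huh7 (vertical) against parental HepG2 cells (horizontal), both as log2(FPKM + 1), with the line of equality. Most members of cluster 5 (purple) lie above the line, ZNF93 and ZNF738 with almost no HepG2 signal, and ZNF114, ZNF580 and ZNF556 lie below it.

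Several members are known to be silenced by promoter methylation in tumours, and 7 of these were listed: ZNF132, ZNF154, ZNF331, ZNF471, ZNF582, ZNF671 and ZNF677. None of the 4 tested in Huh7 cells passed limma's adjusted p, with 1 at an unadjusted p under 0.05 and 0 by limma-voom on the reads. This depended on the setting: with the GC trend removed ZNF582 was higher at 0.28 and ZNF671 lower at -0.59 (adjusted p = 0.0282 and 0.0157). Without resistant replicate 2, ZNF154 and ZNF671 passed as lower (adjusted p = 0.0496 and 0.0298), and without parental replicate 1, ZNF582 and ZNF671 did (0.0233 and 0.0457). Of the 3 tested in HepG2 cells, ZNF132 was higher. ZNF132 measured 1.04, 1.12 and 1.4 FPKM in resistant and 0.518, 0.346 and 0.541 FPKM in parental HepG2 cells, with a log2 fold change of 0.57 ± 0.15 (SE, adjusted p = 0.0301), a call lost without parental replicate 1 or 2 (adjusted p = 0.0654 and 0.0717) and with a pseudocount of 0.1 (0.0502). In HepG2 cells ZNF132 reached 1 FPKM only in the resistant samples, so it passed the level filter through that group alone. ZNF471 and ZNF677 were near 0 in every sample, at no more than 0.138 and 0.0179 FPKM. ZNF582 was expressed in Huh7 cells (1.95, 2.6 and 2.53 FPKM in parental samples) and low in HepG2 cells (0.136, 0.0972 and 0.133 FPKM), with a parental difference of 1.58 ± 0.10 (SE, adjusted p = 7.54e-08). ZNF671 and ZNF154 were likewise higher in parental Huh7 cells, by 1.48 ± 0.14 and 0.96 ± 0.11 (SE, adjusted p = 2.85e-06 and 9.66e-06), and ZNF331, an imprinted gene, was lower, with -0.57 ± 0.14 (SE, adjusted p = 0.00384).

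Of other members with a described role, ZNF224, a repressor of the aldolase A gene, fell in Huh7 cells from 1.89, 2.23 and 2.2 FPKM to 0.801, 0.839 and 0.755 FPKM (log2 fold change -0.79 ± 0.10, adjusted p = 2.57e-04). Its change after GC removal was -0.16 and did not pass (adjusted p = 0.14), and 40.5% of its exon bases lie in exons of other genes. In Huh7 cells ZNF224 reached 1 FPKM only in the parental samples, so it passed the level filter through that group alone. ZNF350 (ZBRK1), a partner of BRCA1, was below the level filter in both lines, at 0.592 ± 0.0308 FPKM in resistant and 1.05 ± 0.222 FPKM in parental Huh7 cells and at 1.0 ± 0.324 and 1.08 ± 0.274 FPKM in HepG2 cells (SD, n = 3). ZNF568, which represses a placental form of Igf2 in the mouse, did not exceed 0.433 FPKM in any sample. ZNF121 and ZNF317, among the 5 most abundant members, had log2 fold changes of -0.73 (adjusted p = 6.3e-04) and 0.22 (adjusted p = 0.111) in Huh7 cells and 0.07 and -0.19 in HepG2 cells, where neither passed (adjusted p = 0.85 and 0.386). The Huh7 change of ZNF121 was -0.12 with the GC trend removed and no longer passed (adjusted p = 0.166).

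The partners through which KRAB proteins act were described with a list of 34 genes, all of them tested. In Huh7 cells 12 were higher and 11 lower at an adjusted p under 0.05, which is 35.3% and 32.4% of the list, beside 32.7% and 37.4% of all genes tested, so that the list's shares lay close to the background. Its median log2 fold change was 0.18. With the GC trend removed 9 were higher and 13 lower (26.5% and 38.2%), beside 32.5% and 31.9% of all genes. TRIM28, the corepressor bound by the KRAB box, lies at chr19:58544091-58550722, 62.9 kb beyond the last member of cluster 16, and is rich in GC (63.7%). It measured 347, 262 and 335 FPKM in resistant and 169, 136 and 108 FPKM in parental Huh7 cells, well apart, with a log2 fold change of 1.20 ± 0.19 (SE, adjusted p = 5.91e-04) that was 0.71 with the GC trend removed (adjusted p = 8.52e-04). In HepG2 cells it measured 127, 194 and 170 and 124, 167 and 137 FPKM, and the change of 0.19 did not pass (adjusted p = 0.516).

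SETDB1, the methyltransferase that TRIM28 brings, rose in Huh7 cells by 0.34 ± 0.11 on the log2 scale (SE, adjusted p = 0.0214), which was 0.04 with the GC trend removed (adjusted p = 0.553). The 4 partners that fell beyond the fold threshold in Huh7 cells were ATRX, a chromatin remodeller (-1.66 ± 0.24), PPHLN1 (-1.16 ± 0.12) and FAM208A, also named TASOR (-1.29 ± 0.15), which belong to the HUSH silencing complex, and SMARCAD1 (-1.04 ± 0.18), a remodeller that binds TRIM28 (log2 fold changes ± SE, adjusted p = 3.88e-04, 8.33e-05, 1.43e-04 and 0.00117). After that removal these were -0.80, -0.61, -0.38 and -0.13, the last with an adjusted p of 0.31. In HepG2 cells EHMT2, HELLS, SUV39H2 and UHRF1 were higher and HDAC1, KDM1A and RBBP4 lower at an adjusted p under 0.05, which is 11.8% and 8.82% of the list beside 11.6% and 8.43% of all genes, and no partner passed the fold threshold. After removal of the GC trend 9 were higher and 4 lower there (26.5% and 11.8%), beside 15.8% and 17.6% of all genes.

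The liver identity of the cells was checked with markers. All 9 liver genes of the list, among them ALB, AFP and APOA1, had at least 1 FPKM in every group. Their summed level was lower in resistant cells of both lines without overlap, at 5166 to 5299 FPKM against 7809 to 9677 FPKM in Huh7 and 3815 to 4089 FPKM against 4821 to 5961 FPKM in HepG2 cells. The 3 endothelial markers summed to 2.11 to 2.2 FPKM in resistant and 1.35 to 1.52 FPKM in parental Huh7 cells, and in the opposite order to 1.17 to 1.6 FPKM and 2.58 to 3.66 FPKM in HepG2 cells. The 4 fibroblast markers summed to 2.23 to 2.58 FPKM in resistant and 0.801 to 0.9 FPKM in parental Huh7 cells, and to at most 0.0906 FPKM in HepG2 cells, where the resistant samples were lower. The 4 leukocyte markers summed to 1.21 to 2.94 FPKM, with overlap in both lines. The part of these markers in the changes above was not tested. Fewer cells expressing a gene and less RNA per cell cannot be told apart in these bulk samples.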

How the data were processed

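Members and gene lists were chosen with earlier results of these data known. RNA of 12 samples had been sequenced from NEBNext Ultra libraries, and the submitters' processing notes name GRCh38 and bcl2fastq; the aligner, the counter and whether strand was used are not given in the sources used here. The deposited values are FPKM by their size, although the authors' files do not name the unit. Multiplied by the union exon length (GENCODE 29) and a depth per sample, 96.4% of values of up to 2000 reads came out whole within 0.05 reads, which gave the depths. Rows of 71462 NONCODE genes were left out, and 0 columns of per-sample values were unused.

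Log2(FPKM + 1) was fitted across all genes with limma 3.58.1 (R 4.3.3, trend), for genes that reached 1 FPKM in 3 or more of a line's 6 samples, or of all 12 for the interaction and the parental comparison. Fold changes on this scale understate the change of low genes. P-values were adjusted by Benjamini and Hochberg, and differential expression meant an adjusted p under 0.05 with a log2 fold change beyond 1. Resistant minus parental, or Huh7 minus HepG2, is the direction throughout. On simulated data for Huh7, limma called 95.6% of 91 genes changed by 2 on the log2 scale among 12362 genes, with 3 other calls. For HepG2 it called 91.84% of 98 such genes among 11744, with 7 other calls. Smaller changes were not simulated. The simulated libraries had a fixed spread and no GC trend between them, so these shares do not cover the GC trend seen in Huh7.

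The named members were, per line, the 5 highest and 5 lowest called (by adjusted p alone where fewer than 5 passed the fold), those called in both lines, the 4 largest interactions, the 5 highest levels, the 3 most higher and 3 most lower between parental lines, and a list by role. The KRAB boxes (pyhmmer 0.12.3, E-value limit 1e-05), the GC ranges, the promoter motifs and the closer description of cluster 16 were chosen after the values were seen. The GC trend was removed per library by lowess with a span of 0.3. Other alternatives were a pseudocount of 0.1, no filter, a minimum of 10 reads per sample, scaling by upper quartile or by median ratio, limma-voom on recovered reads, no trend in limma, a joint fit of all 12 samples, a replicate block, adjusted p alone, and leaving out each sample.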

Additional observations from a re-analysis of the deposited data

Results flagged for a closer look

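Named members whose resistant against parental change differed between the lines by the interaction term (limma, adjusted p under 0.05) are given as the log2 fold change in Huh7 minus that in HepG2. Cluster 16 members ZNF416, ZNF543, ZNF274, ZNF304 and ZNF460 had positive differences of 1.74, 1.69, 1.32, 1.03 and 0.71, and ZNF114 had 0.94. In cluster 16, 2 members went the other way, ZNF584 with -0.52 and ZNF132 with -0.49. The most negative differences were those of ZNF69 (-2.05), ZNF714 (-1.88), ZNF506 (-1.64), ZNF780A (-1.51), ZNF93 (-1.34), ZNF91 (-1.27) and ZNF440 (-1.19). ZNF121 (-0.80) and ZNF224 (-0.46) were smaller. With the GC trend removed, the differences of ZNF121, ZNF224 and ZNF91 were -0.10, 0.25 and -0.34 and no longer passed (adjusted p = 0.635, 0.0949 and 0.0971), and the other 14 still passed.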

How the results depend on the processing

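The number of members differentially expressed in Huh7 was 18, and became 49 with a pseudocount of 0.1, 55 with limma-voom, 11 with the GC trend removed (also with the replicate block) and 107 by adjusted p alone, with 14 to 22 when 1 sample was left out. In HepG2 it was 1, and became 6, 7 and 15 with the pseudocount of 0.1, limma-voom and adjusted p alone, with 1 to 2 when 1 sample was left out (2 without resistant replicate 1 or parental replicate 3). In both lines it was 1, and 7 by adjusted p alone. Between the parental lines it was 33, and became 60, 63 and 115 under the same 3 settings, with 29 to 36 when 1 sample was left out. The interaction count of 85 was 71 to 89 when 1 sample was left out. By adjusted p alone, the 15 HepG2 members were 5 with no filter, 23 with limma-voom, 31 with all samples in one fit, 29 with the GC trend removed and 36 of 187 with at least 10 reads in every sample. The median of the members in Huh7, -0.31, became -0.45 with the pseudocount of 0.1, -0.20 with no filter, -0.48 with limma-voom and 0.14 with the GC trend removed (with or without the block), and -0.40 to -0.23 when 1 sample was left out. In HepG2 it went from 0.07 to -0.038 with the GC trend removed, and to -0.0018 to 0.09 when 1 sample was left out. The cause of these shifts was not tested.

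Small fold changes that changed sign were, in HepG2, ZNF121 (-0.036 under median-ratio scaling, -0.041 with the GC trend removed, -0.14 to 0.29 with a sample left out), ZNF331 (-0.043 under upper-quartile scaling, -0.075 under median-ratio scaling, -0.051 with the GC trend removed, -0.074 to 0.18 with a sample left out), ZNF587 (-0.0099 under median-ratio scaling) and ZNF91 (-0.012, -0.045 and -0.047 under the 3 settings named for ZNF331, -0.098 to 0.17 with a sample left out), and with the GC trend removed in Huh7, ZNF154 (0.14), ZNF317 (-0.037) and ZNF582 (0.28). Of these, ZNF582 passed the adjusted p under the setting that turned it (0.0282, and 0.0649 with the block), and the others did not. Median-ratio scaling moved the median of all genes by 0.13 for the interaction and -0.11 between the parental lines, and removal of the GC trend by -0.10 in HepG2, 0.17 and -0.18.

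Samples with the same number did not deviate together in each pair (correlations of 0.084, 0.062 and -0.23 in Huh7 and 0.25, 0.44 and -0.011 in HepG2), so the replicate block rests on the number alone. It gave 18 members in Huh7, 1 in HepG2, 80 for the interaction and 33 between the parental lines. By adjusted p alone the block gave 12 higher and 9 lower members in HepG2. Depth limited the 16 members with no more than 3 reads in any sample.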
